A study of Rattus norvegicus with 2 samples.

Results

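The defensin-rich early neutrophils of the rat zygomatic maxillary suture are 404 cells, 235 from a distracted suture and 169 from a sham-operated one, out of 9220 cells kept and 10240 deposited. They were chosen from their own transcripts. Among 1919 cells with at least 2% of their molecules from S100a8 and S100a9, under 1% from the primary granule genes Mpo, Elane, Prtn3 and Ctsg, and fewer than 5 molecules of Vcan and Fn1, they are those in which the score of Np4, Defa5, Defa11 and Camp was the highest of 4 scores. The other scores were built from Ngp, Lcn2, Cd177 and Hp, from Mmp8, Mmp9, Retnlg and Lrg1, and from Ccl6, Il1r2, G0s2 and Ifit3, and the cells they led are called here by their first genes. Cells with at least 1% of molecules from Mpo, Elane, Prtn3 and Ctsg and fewer than 5 from Vcan and Fn1 are called progenitors. The levels of these 24 genes therefore describe the choice and are not a result.

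Both groups were rats 4 weeks old. In the distraction group (DO) a W-shaped spring of 0.4 mm nickel-titanium wire, calibrated to an initial force of 20 g, pulled on the bones for 7 days. In the sham group (SC) the holes were drilled and no spring was placed. Each group is 1 library of single cells trapped with the BD Rhapsody system after the tissue had been crushed into a suspension. How many animals gave a library is not stated in the sources used here.

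Neutrophils are made in bone marrow, and their granules fill in a fixed order as the cells mature. Primary (azurophil) granules come first and hold myeloperoxidase and serine proteases, secondary (specific) granules follow with lactoferrin, lipocalin and cathelicidin, and tertiary (gelatinase) granules come last. Alpha-defensins are small cationic peptides that kill microbes and are stored in primary granules. In human marrow their transcripts appear later than those of myeloperoxidase, and people who lack the transcription factor C/EBP epsilon have neutrophils with little defensin.

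The table of sequences held promoters for 3 of the alpha-defensin genes that were abundant in the selected cells and for the cathelicidin gene Camp. They are shown because Np4, RatNP-3b and Defa11 went together from cell to cell while Camp did not. Each sequence runs from 250 bases before the annotated start to 50 bases after it in RefSeq build GRCr8, written on the gene's own strand, which is the minus strand for all 4. Np4 lies at chr16:77199593-77199892, RatNP-3b at chr16:77248928-77249227, Defa11 at chr16:77237992-77238291 and Camp at chr8:118721949-118722248. Capitals mark matches on either strand to the CCAAT box (CCAAT) and to the C/EBP motif (TTNNGNAA), and no match to the first overlaps a match to the second.
Np4: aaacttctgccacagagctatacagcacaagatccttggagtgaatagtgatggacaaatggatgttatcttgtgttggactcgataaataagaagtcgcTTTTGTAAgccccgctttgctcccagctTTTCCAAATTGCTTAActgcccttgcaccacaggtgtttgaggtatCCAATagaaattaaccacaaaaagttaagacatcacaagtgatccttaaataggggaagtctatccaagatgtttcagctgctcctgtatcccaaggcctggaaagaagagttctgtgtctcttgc
RatNP-3b: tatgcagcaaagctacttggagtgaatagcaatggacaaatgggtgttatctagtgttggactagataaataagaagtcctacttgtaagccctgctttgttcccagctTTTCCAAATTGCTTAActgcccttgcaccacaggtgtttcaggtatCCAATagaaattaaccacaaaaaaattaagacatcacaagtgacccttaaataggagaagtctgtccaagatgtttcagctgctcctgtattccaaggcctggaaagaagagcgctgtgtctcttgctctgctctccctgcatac
Defa11: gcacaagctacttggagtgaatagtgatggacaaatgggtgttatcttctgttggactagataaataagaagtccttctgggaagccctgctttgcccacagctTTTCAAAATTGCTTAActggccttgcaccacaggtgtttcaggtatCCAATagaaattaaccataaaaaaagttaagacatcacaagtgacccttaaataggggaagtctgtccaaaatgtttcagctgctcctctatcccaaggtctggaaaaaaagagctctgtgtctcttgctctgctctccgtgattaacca
Camp: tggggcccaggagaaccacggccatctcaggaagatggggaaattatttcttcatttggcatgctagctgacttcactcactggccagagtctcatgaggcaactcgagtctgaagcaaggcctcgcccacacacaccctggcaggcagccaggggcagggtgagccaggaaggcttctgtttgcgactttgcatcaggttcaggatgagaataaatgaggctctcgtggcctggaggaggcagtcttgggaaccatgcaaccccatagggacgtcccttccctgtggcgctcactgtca
The Np4, RatNP-3b and Defa11 promoters each held 1 CCAAT match, at 76, 95 and 100 bases before the start, and 3, 2 and 2 matches to the C/EBP motif. Camp held neither. Of all 33469 rat promoters of this length, 37.5% held CCAAT and 41.3% held TTNNGNAA on either strand. None of the 4 held the TATA box TATAAA, present in 14.2% of promoters, or the PU.1 motif GAGGAA, present in 27.6%. RatNP-3b and Defa11 were 88.5% identical over the alignment, Np4 was 81.2% identical to RatNP-3b and 77.8% to Defa11, and Camp was 44.8% to 46.8% identical to the others. The longest run common to the 3 defensin promoters was 23 bases around the CCAAT box, aggtatCCAATagaaattaacca, and no promoter other than these 3 contained it. All 9 alpha-defensin genes measured are annotated on chromosome 16 and Camp on chromosome 8. A match of letters is a description of the sequence and does not show that a factor binds there.

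The libraries held 4889 DO cells with 32078960 counted molecules (UMIs, unique molecular identifiers) and 5351 SC cells with 29924342. A cell was kept if it had 500 or more UMIs, 200 or more genes and a mitochondrial share below 25%, as 4037 DO cells (median 4161 UMIs) and 5183 SC cells (median 3033 UMIs) did. The lowest UMI number of any deposited cell was 125 in DO and 920 in SC. The libraries shared 22 barcodes, 1 DO member and 1 SC member carried a barcode that the other library also held, and no barcode was a member in both. Neither group has a replicate library, so differences between DO and SC were not tested and no p-value is given. All intervals are at the 95% level and reflect counting error, not animals or dissections.

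The selected cells were the deepest of the neutrophil stages. They held a median of 14330 UMIs and 2487 genes per DO cell and 10182 UMIs and 2068 genes per SC cell, against 5914 and 5458 UMIs in the Ngp and Lcn2 stage and 2511 and 2593.5 in the Ccl6 and Il1r2 stage of the DO and SC libraries. The progenitors were deeper still, with medians of 33151.5 and 15821.5 UMIs. In total the members gave 3660155 UMIs in DO and 1704956 in SC. Levels below are UMIs per 1e+06 UMIs of the cells named (CPM). A UMI stands for 1 captured molecule, so genes are compared as molecules and not per length.

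The label was checked against the genes that filled these cells, and genes of the rule are abundant here because the cells were chosen by them. The alpha-defensin RatNP-3b, which the rule did not use, was the most abundant transcript, with 7.93% of UMIs in DO members and 6.98% in SC members. It is a close copy of Np4 and Defa5 of the rule and went with them from cell to cell. Its abundance therefore followed in part from the choice and is no separate check of the label. The calprotectin subunit S100a8 followed with 6.47% and 6.68%, then Defa5 with 6.35% and 5.65%, S100a9 with 5.59% and 5.41% and Np4 with 4.95% and 5.03%, all 4 of them in the rule. Camp, also in the rule, held 1.48% and 1.80%. Outside the rule were Anxa1, which encodes a calcium-dependent membrane-binding protein of myeloid cells, at 1.35% and 1.37%, and Srgn, which encodes the proteoglycan that packs granule proteins, at 1.11% and 0.878%. Together the 9 alpha-defensin genes took 19.3% of all UMIs in DO members and 17.7% in SC members, a sum in which Np4 and Defa5 were chosen to be high.

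Defensin transcripts were concentrated in these cells and, at lower levels, in the progenitors. Per cell, the alpha-defensin share had a median of 19.1% in DO members and 15.1% in SC members and ran from 0.346% to 45.0% in DO and from 0.342% to 46.0% in SC. Summed over cells, it was 0.128% in DO and 0.108% in SC in the Ngp and Lcn2 stage, 0.0933% and 0.0576% in the Mmp8 and Mmp9 stage, and 0.0891% and 0.134% in the Ccl6 and Il1r2 stage. In progenitors it was 9.01% in DO and 4.99% in SC, with medians of 5.66% and 0.353%, so a part of the progenitors carried much defensin RNA and a part hardly any.

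**Figure D1:**
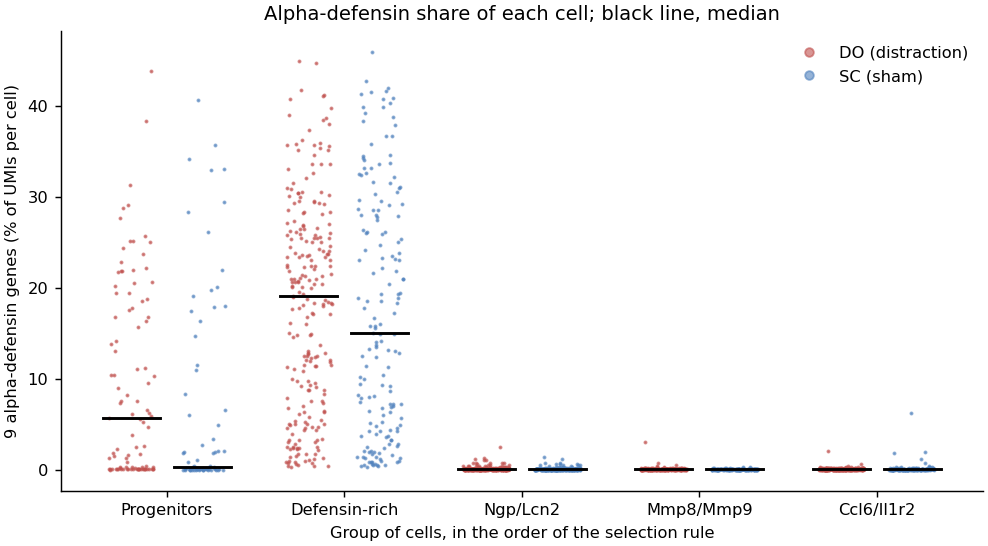
Share of the 9 alpha-defensin genes among the UMIs of each cell (percent), by group of cells and library; each point is a cell and the black line the median. The defensin-rich cells have medians of 19.1% in DO and 15.1% in SC, the later stages lie near 0, and the progenitors are spread between both.

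The family was carried by a few genes. RatNP-3b stood at 79332 CPM in DO members and 69815 CPM in SC members, Defa5 at 63533 and 56462, and Np4 at 49498 and 50267. Defa11 was lower by far, at 788 CPM in DO and 592 CPM in SC, and Defa10, annotated as a non-coding transcript, was at 94.5 and 73.3. Defa6, Defa8, Defa24 and Defal1 had a UMI in at most 3 members of a library. Alpha-defensin genes are close copies of each other, so how reads were divided among them is uncertain.

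Granule transcripts were also counted in B-lineage cells, and whether as free RNA or in doublets was not tested. In these cells, which should lack granule transcripts and numbered 971 in DO and 1934 in SC, RatNP-3b stood at 294 and 281 CPM, Np4 at 172 and 190, and Camp at 47.3 and 54.0. The Ngp and Lcn2 stage, with 613 and 488 CPM of RatNP-3b and 364 and 336 CPM of Np4, was thus within a few-fold of the level in B-lineage cells for the defensins, while its Camp, at 18709 and 17175 CPM, was far above it. With each cell thinned to 1000 UMIs, RatNP-3b was seen in 100% of DO members and 99.4% of SC members, against 27.0% and 21.1% of B-lineage cells. The rule set the shares of the genes that follow, and in part that of RatNP-3b, which went with Np4 from cell to cell. Np4 was seen after thinning in 99.6% of DO members and 99.4% of SC members, against 17.1% and 14.6% of B-lineage cells. Without thinning it was seen in 100% of members of both libraries and in 60.0% and 45.4% of B-lineage cells, whose median depths were 4849 and 3890 UMIs. The scarcer Defa11 was seen in 35.5% of DO members and 28.1% of SC members after thinning, against 0.103% and 0.155% of B-lineage cells. Mpo was seen in 20.1% and 16.8% of thinned members, against 2.68% and 2.59% of B-lineage cells.

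The granule genes followed one another across the stages. Mpo, the myeloperoxidase gene, was at 12393 CPM in DO progenitors and 11976 CPM in SC progenitors, at 914 and 675 in members, and at 25.6 and 16.3 in the Ngp and Lcn2 stage. Camp was at 193 and 93.9 CPM in progenitors, 14796 and 18007 in members and 18709 and 17175 in the Ngp and Lcn2 stage, so the members already held it at nearly the later level. Ngp, which encodes a cathelicidin-like granule protein, was at 1330 and 1259 CPM in members and 58719 and 53866 in the next stage, and Lcn2, lipocalin, was at 2909 and 3755 and then 18955 and 19454. The gelatinase-granule gene Mmp8 was at 55.5 and 48.7 CPM in members and 3234 and 3706 in the Ngp and Lcn2 stage. All of these belong to the rule, and their order is what the scores were built to separate.

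**Figure D2:**
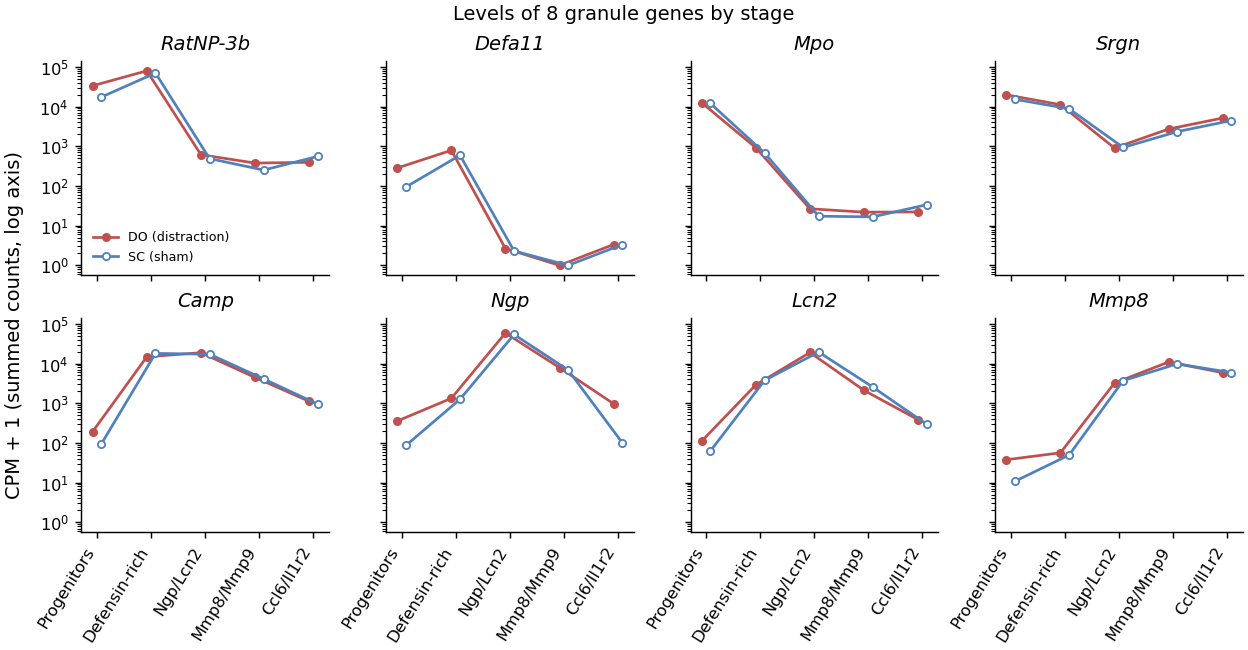
Level of 8 granule genes (CPM + 1, log axis) summed over the cells of each group, in DO (filled) and SC (open). RatNP-3b and Defa11 peak in the defensin-rich cells, Mpo and Srgn are highest in progenitors, and Camp is about as high in the defensin-rich cells as in the Ngp and Lcn2 stage.

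The members were not uniform. Np4, Defa5, Camp, Lcn2 and Mpo belong to the rule, and a member low in defensins had to be high in Camp to be chosen, so their relations within members are partly set by the choice. Across cells, Np4 went with Defa5 (Spearman correlation 0.95 over 235 DO cells and 0.97 over 169 SC cells) and with RatNP-3b (0.89 and 0.94), and against Camp (-0.75 and -0.54) and Lcn2 (-0.79 and -0.71). Mpo went with Np4 (0.64 and 0.50). Cells of a library share their library, and values that are shares of the same total push each other down, so these are descriptions with no p. With the defensin UMIs taken out of each cell's total, the correlation of Camp with the alpha-defensin share was -0.60 in DO and -0.38 in SC. Camp exceeded all alpha-defensins together in 27 DO cells (11.5%) and 26 SC cells (15.4%).

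Cut at alpha-defensin shares of 10% and 30%, limits chosen after the values had been seen, the members fell into 73, 124 and 38 DO cells and 67, 66 and 36 SC cells. From the lowest to the highest of these classes, Mpo was at 10.8, 1080 and 1632 CPM in DO and at 19.2, 722 and 1729 CPM in SC. Camp was at 27439, 12202 and 5969 CPM in DO and at 27513, 15566 and 7165 CPM in SC. Lcn2 was at 8487, 1504 and 182 CPM in DO and at 8738, 1673 and 116 CPM in SC, and Srgn was at 2447, 12798 and 17736 CPM in DO and at 2081, 9790 and 18207 CPM in SC. The classes also differed in depth, with median UMIs of 12134, 18042.5 and 14685.5 in DO and 8085, 12362 and 7005 in SC. Of these 4 genes Srgn alone is outside the rule, and it was highest in the cells richest in defensins in both libraries, in levels whose total includes the defensin UMIs.

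**Figure D3:**
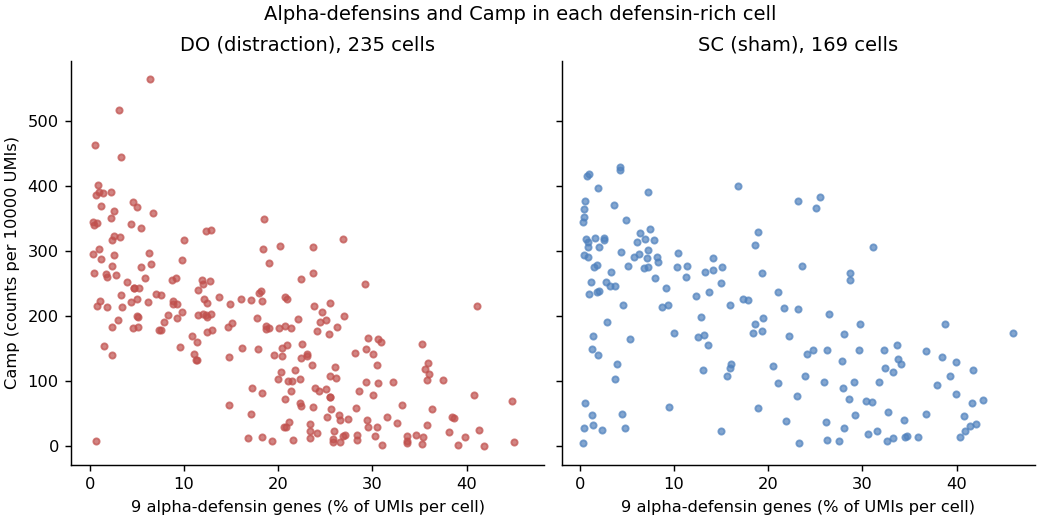
Camp (counts per 10000 UMIs) against the share of the 9 alpha-defensin genes (percent of UMIs) in each of the 235 DO and 169 SC members; each point is a cell. Cells with a low defensin share hold the most Camp in both libraries, and Camp and the main defensins other than RatNP-3b belong to the rule.

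With the defensin UMIs taken out of each cell's total, 400 genes at 200 CPM or more were compared with the alpha-defensin share over members. Of these, 120 had a positive and 184 a negative correlation with it in both libraries. Any correlation of that sign was counted, however near 0, such as Pgk1 (0.11 in DO and 0.00024 in SC). Genes of the rule were also counted, so these numbers do not say how many genes were related to the share. A Spearman correlation of at least 0.5 in both was reached by Srgn (0.86 in DO and 0.88 in SC), by Mgst1 (0.65 and 0.52), which encodes a membrane-bound glutathione transferase, by Nkg7 (0.52 and 0.58), whose product sits in the membrane of cytotoxic granules, and by Ms4a3 (0.61 and 0.51), a membrane protein gene of granulocyte-monocyte precursors. A correlation of -0.5 or below in both was reached by Tf, the transferrin gene (-0.78 and -0.70), Lcn2 of the rule (-0.75 and -0.67), Ckap4, which encodes a protein of the endoplasmic reticulum membrane (-0.72 and -0.62), the adaptor gene Tyrobp (-0.62 and -0.58), and Pglyrp1, which encodes a peptidoglycan-binding granule protein (-0.65 and -0.52).

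The selection had soft edges in a few cells. The score of the defensin genes was at or below the mean of all neutrophil cells in 1 DO and 1 SC member, with lowest z-scores of -0.0061 and -0.27 and medians of 1.92 and 1.82. The lead over the next score was under 0.25 in 7 DO and 8 SC members, the smallest lead being 0.0901 and 0.0034. Another 8 DO and 8 SC cells missed membership by less than 0.25, the nearest by 0.0521 and 0.0169. All 4 genes of the score were present in 170 DO and 94 SC members. Mpo, Elane, Prtn3 and Ctsg together held 0.5% to 1% of UMIs in 8 DO and 4 SC members.

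Against the Ngp and Lcn2 stage, the members differed by large folds in genes outside the rule. A gene is called here when it differed by at least 1.5-fold in the same direction in both libraries, with both intervals on 1 side of 1. Of 2259 genes that could be called, 383 were higher in members (17%) and 434 lower (19.2%). Both groups were cut from the same cells by genes that change together, so a large share had to differ, and these counts are a description.

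The leading genes after RatNP-3b, at 129-fold in DO (123 to 136) and 143-fold in SC (133 to 154), again included granule genes. Ms4a3 was at 414 CPM in DO members against 6.20 in the Ngp and Lcn2 stage, 66.8-fold (40.4 to 120), and at 287 against 1.31 CPM in SC, 220-fold (60.5 to 1820) over a count of 2. Defa10 had counts of 346 and 125 in DO and SC members and of 1 and 0 in that stage. Nkg7 was 11.9-fold higher in DO and 16.3-fold in SC, and Srgn 12.4-fold and 9.43-fold. Csf1, which encodes macrophage colony-stimulating factor, was at 346 and 311 CPM in members against 27.3 and 50.3 CPM. The fucosyltransferase gene Fut7, needed to make selectin ligands, was 7.58-fold and 5.39-fold higher, and the phosphatase gene Ptpn7 6.30-fold and 5.53-fold. The remaining genes of the highest 12 serve DNA synthesis: Tk1 (7.22-fold and 7.27-fold), Dut (7.00 and 5.40) and Rrm1 (5.42 and 4.98) in nucleotide supply and Cdt1 (8.56 and 5.05) in licensing of replication origins.

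Among the lowest 12 genes in members, Degs1, a ceramide desaturase gene, was at 6.56 CPM in DO members against 187 CPM in the Ngp and Lcn2 stage and at 5.28 against 174 CPM in SC, ratios of 0.0350 and 0.0303. Sod2, mitochondrial superoxide dismutase, was at 166 against 1823 CPM in DO and 134 against 2184 CPM in SC. The vitamin B12 carrier gene Tcn2 (0.0346 in DO and 0.0496 in SC), Il1rn, the interleukin-1 receptor antagonist (0.0580 and 0.0449), the phagosomal metal transporter gene Slc11a1 (0.0744 and 0.0658), and the LFA-1 integrin subunit gene Itgal (0.0893 and 0.0843) were lower by similar folds. Crispld2, Aqp9, Stx11, Dennd3 and Upp1 were also among the lowest 12.

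By list, beside the 17% of all genes higher and 19.2% lower, of 10 primary granule genes outside the rule, 4 were higher in members and none lower: Ms4a3, Srgn, the cystatin gene Cst7 (4.88-fold in DO and 4.87-fold in SC) and Cd63, a tetraspanin of azurophil granules (1.79 and 1.64). Of 13 secondary granule genes, none was higher and 5 were lower, and of 4 tertiary granule genes all 4 were lower. Among the genes of the NADPH oxidase, 2 of 5 were lower, Ncf1 (0.33 and 0.27) and Ncf4 (0.66 and 0.62). Of 14 genes of mature neutrophils 10 were lower, and of 7 inflammatory cytokines and chemokines 6 were lower, among them Il1b at 402 and 475 CPM in members against 2081 and 2477 CPM. Of 9 adhesion and retention receptors 6 were lower and 1, Cd47, was higher (3.47 and 2.76).

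Beside the same 17% of all genes higher, all 14 S-phase genes that could be called were higher in members, with a median log2 ratio of 2.18 in DO and 1.90 in SC, beside 0.00 and -0.08 over all genes compared. Of 18 G2/M genes 12 were higher, with medians of 0.75 and 1.68, and of 28 genes of the secretory pathway 16 were higher, with medians of 0.98 and 0.69, among them the chaperone Hspa5 (2.45-fold and 1.84-fold) and the disulphide isomerase P4hb (3.08 and 1.78). Of 63 ribosomal protein genes 23 were higher. Alas1, the first enzyme of haem synthesis, was 4.70-fold and 3.51-fold higher, and the transferrin receptor Tfrc 2.76-fold and 2.06-fold.

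Set against the progenitors, of 2906 genes that could be called, 348 were higher in members (12%) and 1353 lower (46.6%), and the median log2 ratio of all of them was -0.55 in DO and -0.67 in SC. All 67 ribosomal protein genes, 34 of 35 secretory pathway genes and 19 of 25 oxidative phosphorylation genes were lower in members. Of 13 secondary granule genes 12 were higher, and of 5 NADPH oxidase genes 4. The largest differences upward included Chit1, a chitinase gene (106-fold in DO and 138-fold in SC, over progenitor counts of 7 and 3), Ckap4 (51.6 and 204), Tf (42.6 and 93.6) and Pglyrp1 (30.9 and 81.8). Tf was at 3419 and 4038 CPM in members against 80.3 and 43.2 CPM in progenitors. Kit, the stem cell factor receptor, was at 0.546 and 1.17 CPM against 80.0 and 127 CPM, and C1qbp (0.0319 and 0.0224) and Idh2 (0.0207 and 0.0409), which encode mitochondrial proteins, were also among the lowest 12. Depth per cell was higher in progenitors than in members in both libraries, and its part in these ratios was not tested.

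Cell-cycle genes were seen in many of the members. With each cell thinned to 1000 UMIs, at least 3 of 25 S-phase genes were present in 78 of 234 DO members, 33.3% (27.3 to 39.8), and 46 of 167 SC members, 27.5% (20.9 to 35.0). In the Ngp and Lcn2 stage the shares were 1.66% and 3.02%, and in progenitors 19% and 26.4%. At least 3 of 28 G2/M genes were present in 52.1% of DO members (45.5 to 58.7) and 53.3% of SC members (45.4 to 61.0), against 14.4% and 11.3% in the Ngp and Lcn2 stage and 37% and 27.8% in progenitors. In the Mmp8 and Mmp9 stage the G2/M share was 0% and 0.694%. Without thinning the members stood at 88.1% and 75.1% for S phase and 90.2% and 83.4% for G2/M. The share of 1 DO and 2 SC members too shallow to thin is not included. Pcna, the replication clamp, was at 1303 and 1247 CPM in members. It was nearly as high in the Ccl6 and Il1r2 stage, at 1180 and 1208 CPM, where 0.629% and 2.44% of cells met the S-phase limit. Its level therefore does not set the members apart. Mki67, a marker of cycling cells, was at 266 and 216 CPM in members and at 17.6 and 28.1 in that stage. Np4 and the S-phase genes were hardly related from cell to cell (Spearman correlation 0.08 and 0.23). With the G2/M genes the correlation was -0.33 in DO and -0.086 in SC for Np4, and -0.45 and -0.18 for RatNP-3b.

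**Figure D4:**
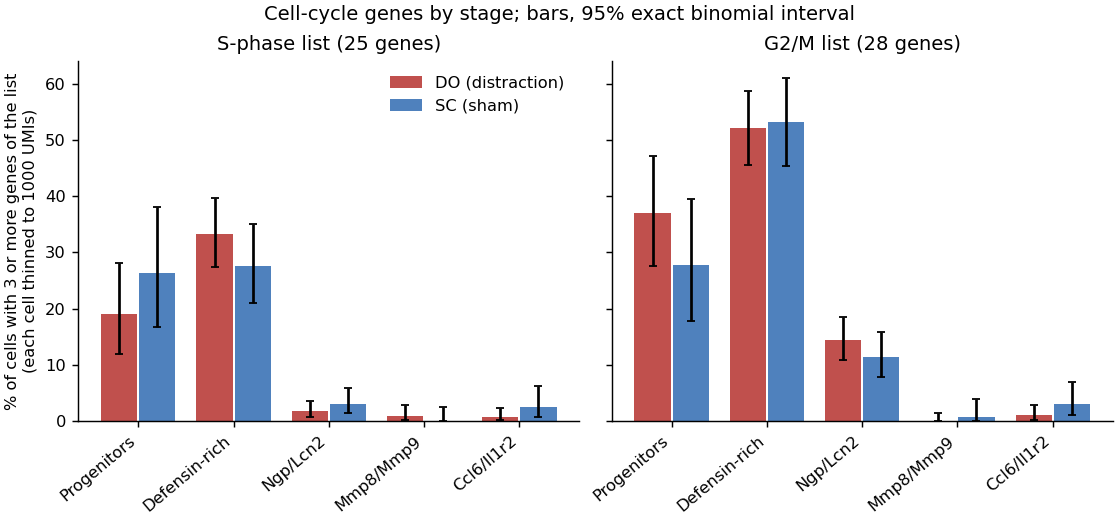
Percent of cells with 3 or more genes of the S-phase list and of the G2/M list after thinning each cell to 1000 UMIs, by group of cells and library; bars give the 95% exact binomial interval. The defensin-rich cells reach 33.3% in DO and 27.5% in SC for S phase and 52.1% and 53.3% for G2/M, and the later neutrophil stages are lower.

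Turning to distraction, members made up 5.82% of kept cells in DO (5.12 to 6.59) and 3.26% in SC (2.79 to 3.78), a ratio of 1.79 (1.46 to 2.19). The other stages differed in the same direction, with ratios of 1.78 for progenitors, 1.76 for the Ngp and Lcn2 stage, 2.29 for the Mmp8 and Mmp9 stage and 2.50 for the Ccl6 and Il1r2 stage. Within the 1176 DO and 743 SC cells that passed the neutrophil limits, members made up 20.0% in DO (17.7 to 22.4) and 22.7% in SC (19.8 to 25.9), a ratio of 0.879 (0.718 to 1.08). The share of kept cells depends on the other cells of the library, and cells with B-lineage markers numbered 971 in DO and 1934 in SC.

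Some members held transcripts of other cell types. Cells with 3 or more UMIs of B-lineage, erythroid or stromal markers, with globins and Tfrc not counted, were 65 of the DO members (27.7%) and 84 of the SC members (49.7%). Without these cells among the members, and with all 4037 DO and 5183 SC kept cells still counted below the line, the ratio of the shares of kept cells was 2.57. With cells of this kind taken out of all neutrophil stages, leaving 1044 DO and 549 SC cells, the ratio within neutrophil cells was 1.05 (0.806 to 1.38). Summed over members, the 10 B-lineage markers were at 35.8 CPM in DO and 137 in SC, with Ms4a1 at 0 in both and Pax5 at 0 in DO. The 10 erythroid markers were at 573 and 1364 CPM, with Car1 at 0 in SC, and the 12 stromal markers at 70.5 and 165, with Dcn and Rgs5 at 0 in both.

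Markers of other blood cells were at 0 in part and present in part. The 11 T and NK markers were at 466 CPM in DO and 407 in SC, of which Nkg7 alone gave 461 and 405, while Cd3e, Cd3d and Cd2 were at 0 in both. The 10 monocyte markers were at 1181 and 975 CPM, mostly Lgals3, at 1073 and 904, with Cx3cr1 at 0 in both and counts of 200 and 55 for Klf4 and 140 and 42 for F13a1. The 11 macrophage markers were at 42.3 and 50.4 CPM, with Marco at 0 in both and counts of 71 and 46 for Cd68 and 66 and 19 for Mrc1. The 11 dendritic markers were at 59.8 and 82.7, with Flt3, Siglech and Clec9a at 0 in both and counts of 139 and 85 for Cst3 and 24 and 17 for Cd74, and the 7 megakaryocyte markers at 2.19 and 0.587. The 11 basophil, mast cell and eosinophil markers were at 481 and 75.7 CPM. In DO this was mostly Prg2, at 338 CPM against 24.6 in SC, with 880 and 267 of its 1238 DO counts in 2 cells. Ms4a2 had counts of 109 and 50 and Mcpt8 of 76 and 22, and Fcer1a was at 0 in both. The 10 progenitor markers, which include Mpo, Elane, Prtn3 and Ctsg of the rule, were at 1504 and 1056 CPM. Values without the cells that held B-lineage, erythroid or stromal markers stand beside the differences below that they change, and the part of the other lists was not tested.

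Between the libraries, a small share of genes was past the fold within members. Of 2309 genes with at least 50 CPM in 1 library and 30 counts in all, 48 were higher in DO by 1.5-fold or more with an interval on 1 side of 1 (2.08%) and 81 were lower (3.51%), and the median log2 ratio was -0.02. Without the cells that held other cell types' markers, 137 genes were higher and 166 lower, of which 28 and 40 were among the first. These numbers compare 2 libraries and not the conditions.

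In the main comparison no alpha-defensin was past 1.5-fold between the libraries, and as most of them chose the cells, their levels are a description. Np4 was at 49498 CPM in DO and 50267 in SC, RatNP-3b 1.14-fold higher in DO, Defa11 1.33-fold and Defa10 1.29-fold. Over the alternatives, the log2 ratio ran from 0.20 to 1.17 for Defa11 and from 0.20 to 0.89 for Defa10. Both were thus past 1.5-fold in some of them. Those of Np4, RatNP-3b and Defa5 stayed between -0.20 and 0.52. Camp was at 14796 CPM in DO and 18007 in SC (0.822, 0.810 to 0.833), Lcn2 at 2909 and 3755 (0.775) and Cd177, a surface protein gene stored in specific granules, at 158 and 236 (0.672), the last just short of the limit. Over the alternatives, log2 ratios ran from -0.46 to -0.11 for Camp, -0.80 to 0.03 for Lcn2 and -0.76 to -0.05 for Cd177.

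Among genes that passed the limits for naming, the highest in DO was Psat1, an enzyme gene of serine synthesis, at 75.1 CPM in DO against 30.5 in SC (2.46-fold, 1.83 to 3.38), seen in 111 of 235 DO and 35 of 169 SC members. Spn, which encodes the sialomucin CD43 of the leukocyte surface, was at 364 against 198 CPM (1.84-fold, 1.63 to 2.08), in 195 and 103 members. Of lysosomal enzyme genes, Arsb, for a sulphatase, was at 152 against 88.0 CPM (1.72-fold) and Gusb, for beta-glucuronidase, at 53.3 against 32.3 (1.65-fold). The cytoskeletal genes Plec, for plectin, and Cyfip2, for a subunit of the actin-regulating WAVE complex, were 1.79-fold and 1.65-fold higher, and Pla2g7, which encodes the hydrolase of platelet-activating factor, 1.76-fold. Cebpe, the C/EBP factor required for secondary granules, was at 60.7 CPM in DO members and 37.5 in SC members (1.62-fold, 1.22 to 2.17), and at 46.3 and 43.7 CPM in the Ngp and Lcn2 stage. Without the cells holding other types' markers, the log2 ratio of Cebpe was 0.12 and no longer called. Tmem9b, Tm9sf2, Myadm and Fdx1 made up the rest of the highest 12, at 1.66-fold to 1.83-fold. Gusb and Tm9sf2 also lost their call without those cells, at log2 ratios of 0.44 and 0.21, and Pla2g7 (-1.43) and Tmem9b (-0.14) turned with each cell thinned to 1000 UMIs. Thinning also ended the call of Cebpe (0.40), Gusb (1.06), Tm9sf2 (1.46) and Fdx1 (1.08). Fdx1 was not called without its highest cells either (0.57), and a single DO cell held 17.0% of its DO counts.

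The lowest gene in DO that passed the same limits was Fut7, at 75.1 CPM in DO members against 201 in SC members (0.375, 0.318 to 0.440), seen in 82 and 68 cells. In the Ngp and Lcn2 stage it was at 9.92 against 37.2 CPM, a ratio of 0.267 at levels below the minimum for a call. Fpr2, a receptor for formyl peptides and lipid mediators, was at 59.3 against 113 CPM in members (0.526, 0.432 to 0.643) and at 311 against 294 in the Ngp and Lcn2 stage (1.06). Tagap, a GTPase-activating protein gene, was at 106 against 204 CPM (0.521). The RNA-binding protein genes Tardbp (0.521) and Ythdf3 (0.589), the cyclophilin gene Ppil4 (0.494) and the mitotic kinesin gene Kif4a (0.581) were also among the lowest 12, with Appbp2, Apcdd1, Nsrp1, Mob4 and Atg2a between 0.536 and 0.596. Without the cells holding other types' markers, Appbp2 (log2 ratio -0.58), Kif4a (-0.20) and Ythdf3 (-0.52) lost their call, and Ythdf3 turned with thinning (0.31). Thinning also ended the call of Tardbp (-0.16), Apcdd1 (-0.47), Nsrp1 (-1.30), Mob4 (-0.80) and Atg2a (-0.72), and in members with at least 10% alpha-defensin UMIs Nsrp1 (-0.82), Mob4 (-0.41) and Atg2a (-0.40) were not called. Of the 24 genes, Spn, Fut7 and Tagap were called under every alternative tried on single genes. Other CPM minimums and the fold of 2 were tried only on the counts of genes. Spn (1.84-fold) and Tagap (0.521) do not reach a fold of 2. Among the alternatives tried on single genes, Psat1, Arsb, Plec, Cyfip2, Myadm, Ppil4 and Fpr2 lost their call with thinning alone. Their log2 ratios with thinning were still past 1.5-fold (0.69, 0.69, 1.72, 0.92, 1.15, -0.85 and -1.02).

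By list, beside 2.08% of all genes higher and 3.51% lower, 3 of 13 primary granule genes that could be called, out of 19 measured, were higher in DO and none lower, with a median log2 ratio of 0.44 beside -0.02 over all genes. The 13 include 2 genes of the rule, Mpo and Ctsg, and the median is the value of Mpo. It is therefore partly set by the choice. Ctsg, cathepsin G, was at 63.1 CPM in DO against 27.0 in SC (2.34-fold, 1.70 to 3.28), in 57 and 18 members, and it is a gene of the rule. With thinning its log2 ratio was 0.38 and not called, and it was seen in 3.42% of DO and 3.59% of SC members. In kept cells outside the neutrophil stages Ctsg was at 1541 CPM in DO and 661 in SC. Its level in members was thus far below the 50% of that level required of ranked genes. The part of free RNA in its ratio was not tested. A single SC cell held 23.9% of the SC counts of Ctsg. Gusb is given above with the loss of its call. The third was Prg2, the eosinophil major basic protein gene, with 1238 counts in DO and 42 in SC, of which 880 and 267 lay in 2 DO cells. Without those cells its log2 ratio was 0.02 and not called. Ctsc, which encodes the activator of granule proteases, was at 191 against 128 CPM (1.49) and Man2b1, a lysosomal mannosidase, at 259 against 178 (1.45). Ms4a3 was at 414 against 287 (1.44), Mpo at 914 against 675 (1.36) and Srgn at 11135 against 8776 (1.27). None of these was past 1.5-fold in the main comparison. Lyz2, lysozyme, went the other way at 7462 against 8695 CPM (0.858). Over the alternatives, log2 ratios ran from 0.38 to 0.85 for Ms4a3, 0.23 to 1.11 for Mpo and 0.17 to 0.79 for Srgn. Ms4a3, Mpo and Srgn were thus each past 1.5-fold under some alternative. A single SC cell held 18.5% of the SC counts of Mpo.

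Of the other granule lists, beside 2.08% of all genes higher in DO and 3.51% lower, Slpi alone was called. These counts include genes of the rule, whose levels describe the choice. None of 16 secondary granule genes, 4 of them in the rule, passed the fold, with a median log2 ratio of 0.00. Neither did any of 5 NADPH oxidase genes. Of 4 tertiary granule genes, 3 of them in the rule, 1 was higher. This was Slpi, a protease inhibitor outside the rule, at 109 against 51.6 CPM (2.11-fold, 1.67 to 2.69). With each cell weighted equally its log2 ratio was 0.14, and with thinning 0.23, neither called. Of 12 genes of mature neutrophils, 1 of them in the rule, 1 was lower, Fpr2. Cxcr2, the receptor for neutrophil-attracting chemokines, was at 48.9 against 72.7 CPM (0.672, not called). Its log2 ratio of -0.56 was 1.78 with thinning and -1.06 without cells holding other types' markers. Of 6 chemokine and cytokine genes and 6 interferon-induced genes none was called.

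Among transcription factors of granulopoiesis, beside the same 2.08% and 3.51% of all genes, 2 of 15 were higher in DO, Cebpe and Runx1 at 68.3 against 44.6 CPM (1.53-fold), and 2 were lower, Cebpz at 158 against 260 CPM (0.607) and the immediate early gene Fos at 56.8 against 94.4 (0.602). In members with at least 10% alpha-defensin UMIs the log2 ratio of Runx1 was 0.45, with each cell weighted equally that of Fos was -0.39, and with thinning those of Cebpz and Runx1 were -0.64 and 1.46, none of them called. Cxcr4, the receptor that holds neutrophils in the marrow, was at 509 CPM in DO members against 830 in SC members (0.613, 0.572 to 0.657), the only gene called of 8 adhesion and retention receptors. In the Ngp and Lcn2 stage it was at 918 against 1300 CPM (0.706, not called). In members with at least 10% alpha-defensin UMIs its log2 ratio was -0.34 and not called.

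Immediate early and stress genes, which tissue dissociation also raises, had 4 of 16 lower in DO and 1 higher, beside 3.51% and 2.08% of all genes, and a median log2 ratio of -0.32. The lower ones were Fos, Fosb at 40.4 against 75.1 CPM (0.539), Egr1 at 62.6 against 98.5 (0.635, not called without its highest cell) and Ddit3 at 73.8 against 114 (0.648). Fosb and Egr1 were not called in members with at least 10% alpha-defensin UMIs (log2 ratios -0.48 and -0.43). With thinning, Fosb (-1.55), Egr1 (-0.55) and Ddit3 (-0.48) were not called. Ddit3 was also not called with each cell weighted equally (-0.53). A single cell held 25% of the SC counts of Fosb and 25.6% of those of Egr1. The higher one was the phosphatase gene Dusp2, at 205 against 131 CPM (1.57-fold), which turned with thinning (log2 ratio -0.24) and with each cell weighted equally (-0.083).

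The lists that follow stand beside 2.08% of all genes higher in DO and 3.51% lower. Among cell-cycle genes, none of 15 S-phase genes was called, with a median log2 ratio of 0.00. Of 20 G2/M genes 1 was lower in DO, Nusap1 at 55.7 against 89.2 CPM (0.625), with a median of -0.20. Of 29 secretory pathway genes 2 were higher, P4hb at 558 against 365 CPM (1.53-fold) and Ssr4, a subunit of the translocon-associated complex, at 115 against 71.0 (1.62-fold). Of 65 ribosomal protein genes 1 was higher, and their median log2 ratio was 0.32. None of 20 oxidative phosphorylation genes and 8 glycolysis genes was called. Nusap1, P4hb and H2afx lost their call without the cells holding other types' markers (log2 ratios -0.13, 0.54 and -0.48). The histone variant gene H2afx was at 217 against 337 CPM (0.644), 1 of 4 chromatin genes, and the apoptosis inhibitor gene Birc3 at 28.7 against 52.8 (0.543), 1 of 6 apoptosis genes. With thinning, Nusap1 (log2 ratio -0.07), P4hb (0.54), H2afx (-0.51), Birc3 (-0.83) and Ssr4 (0.68) were not called. With each cell weighted equally, H2afx (-0.52), Birc3 (-0.84) and Ssr4 (0.54) were not called. H2afx also lost its call in members with a lead of at least 0.25 (-0.57). Birc3 also lost it without its highest cells (-0.82) and in members with at least 10% alpha-defensin UMIs (-0.61).

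**Figure D5:**
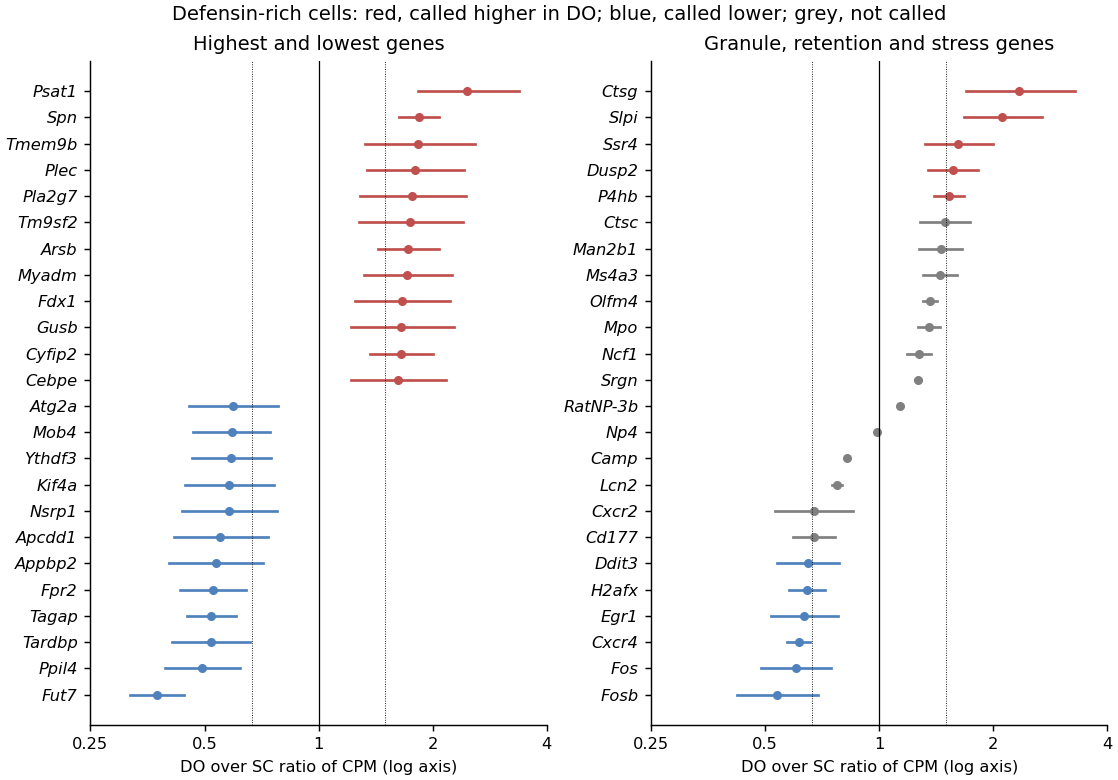
DO over SC ratio of CPM in the defensin-rich cells (log axis), with 95% counting intervals; dotted lines mark 1.5-fold. Left, the 12 highest and 12 lowest genes, from Psat1 at 2.46 to Fut7 at 0.375; right, granule, retention and stress genes, in which Np4 and RatNP-3b lie near 1 and Cxcr4 at 0.613.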

How the data were processed

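The deposited tables give raw counts of molecules (UMIs) for each gene in each cell. Per the file headers, the authors ran the BD WTA Rhapsody Analysis Pipeline 1.5.1. Build Rnor_6.0 and Seurat 3.6 appear in the submitters' processing notes. Annotation release and cell calling: not given in the sources used here. Genes listed in only 1 table were counted as 0 in the other.

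Members and gene lists were chosen with earlier results of these data known. Scores are z-scores of the mean log1p of counts per 10000 over both libraries. Counts were summed per library and group of cells, scaled to 1e+06 (CPM), and compared as ratios with exact conditional binomial 95% intervals. Shares have exact (Clopper-Pearson) intervals. These cover counting error only. Named genes are the 24 of the rule, the 12 highest and 12 lowest per comparison by log2 ratio with 1 CPM added, and genes of 36 lists (all of a short list, otherwise the most abundant and the largest called). Gene ratios against progenitors were added after the data had been seen. A ranked gene could have no more than 25% of its counts in 1 cell of the higher group, and needed a level there of at least 50% of that in kept cells outside the neutrophil stages. Rule, mitochondrial, ribosomal protein, globin and immunoglobulin genes and genes without a symbol were not ranked. Genes named for their relation to the defensin share, and single genes mentioned outside these sets, were chosen after their values were seen. B-lineage cells had under 2% S100a8 and S100a9 and at least 5 UMIs over Cd79b, Vpreb1, Igll1 and Ebf1. Cd79a was not analysed here, and a gene that the naming rule selected is not reported here. No doublet caller was run. As an alternative, cells with 3 or more UMIs of B-lineage, erythroid or stromal markers were left out. Promoters are from RefSeq. The ratio code was tested on simulated data. Python 3.11.15, numpy 2.4.6, scipy 1.17.1, pandas 2.3.3 and matplotlib 3.10.9 were used.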

Additional observations from a re-analysis of the deposited data

Results flagged for a closer look

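Dusp2, Klf4, Prg2, Hba-a2 and Hbb differed between DO and SC in 1 direction in the defensin-rich cells and in the opposite direction in another group of cells. The difference between those ratios was not tested in any of them, since each group has 1 library. Dusp2, a phosphatase gene, had a DO over SC ratio of 1.57 in members (205 against 131 CPM), against 0.326 in the Ngp and Lcn2 stage (30.2 against 92.7 CPM) and 0.509 in the Mmp8 and Mmp9 stage (41.8 against 82.0 CPM). Klf4, a transcription factor gene of monocytes, had a ratio of 1.69 in members (54.6 against 32.3 CPM), against 0.502 in the Ccl6 and Il1r2 stage and 0.460 in progenitors. In members, the log2 ratio of Klf4 turned to -0.065 without cells holding other types' markers, and that of Dusp2 to -0.24 with cells thinned to 1000 UMIs and -0.083 with each cell weighted equally.

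Prg2 had a ratio of 13.7 in members and 0.291 in the Ngp and Lcn2 stage (103 against 355 CPM), and 880 and 267 of its 1238 DO counts in members lay in 2 cells. The haemoglobin gene Hba-a2 had a ratio of 0.391 in members and 3.54 in the Ccl6 and Il1r2 stage, and 970 of its 1940 SC counts in members lay in 1 cell. Hbb had a ratio of 0.235 in members, against 2.55 in the Mmp8 and Mmp9 stage and 8.50 in the Ccl6 and Il1r2 stage, and 52 of its 99 SC counts lay in 1 cell.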

How the results depend on the processing

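No paired analysis was possible because each group has 1 library, and for the same reason no replicate could be left out. The share of kept cells stayed within its interval except without cells holding other types' markers, where its ratio was 2.57. The count of genes higher in DO was 48, against 137 without those cells, 108 in members with at least 10% alpha-defensin UMIs (chosen after seeing the data), 78 with each cell weighted equally, 19 at 100 CPM or more, 227 with no CPM minimum and 7 at a fold of 2. The count of lower genes was 81, against 140 when scaled without the rule's genes, mitochondrial genes and globins, 166 without cells holding other types' markers, 34 at 100 CPM or more, 417 with no CPM minimum and 13 at a fold of 2. Called log2 ratios that turned were those of Tmem9b (-0.14), Pla2g7 (-1.43), Ythdf3 (0.31) and Dusp2 (-0.24) with cells thinned to 1000 UMIs, of Dusp2 with each cell weighted equally (-0.083), of Klf4 without cells holding other types' markers (-0.065), and of Prg3 without the cells rich in eosinophil granule genes (-0.93) and in members with at least 10% alpha-defensin UMIs (-0.40), the last 2 chosen after seeing the data. Among genes not called, Cxcr2 and Mmp8 turned with thinning (1.78 and -1.55) and Hp, near 0, under several settings (-0.76 to 0.28). Of the other values for single genes, 795 stayed as they were, called or not called, 85 lost a call and 22 gained one. The cause was not tested, except that thinning leaves fewer counts. The median log2 ratio of the primary granule list, which includes Mpo and Ctsg of the rule, ranged from 0.23 to 0.75 and that of the immediate early list from -0.48 to -0.27. All 240 values of the comparison with the Ngp and Lcn2 stage kept their call. Scaling moved the median of all genes by under 0.05. Depth limits SC more: DO members held 3660155 UMIs and SC members 1704956.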

Other observations

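A pair of DO members carried eosinophil granule genes. Of 1238 counts of Prg2 in DO members, 880 and 267 lay in these cells, of 250 counts of Prg3 189 and 56, and of 85 counts of Epx, eosinophil peroxidase, 42 and 30. In SC members the counts were 42, 6 and 3, with at most 4 in a cell.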
